A study of Drosophila melanogaster with 3 samples.

Results

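The regions described here are those called for Pif1B in pupae of the fruit fly, Drosophila melanogaster. They lie at the starts of noncoding RNA genes and away from the starts of protein-coding and transfer RNA genes. They were taken from the relaxed list of regions called on the pooled replicates in the dm6 build, and their choice used position only. By its title that list holds peaks and background, so a place in it does not by itself show binding. A region was a member when its summit lay within 500 bp of a transcript start of a gene of the Ensembl biotype ncRNA and of no start of a protein-coding or tRNA gene. The rule gave 784 of 29999 regions, or 2.61%. Of these, 195 were also in the authors' list thresholded by the irreproducible discovery rate (IDR), and the other 589 were not. The members lay at 661 of the 2819 noncoding genes of the annotation, and 187 genes had a member in the IDR list. These were 157 of 1947 long noncoding RNA genes, 17 of 503 antisense RNA genes, 10 of 262 microRNA hairpin genes and 3 of 107 others. These totals include genes with a start near a protein-coding start, where the rule can remove regions. There were 502 such genes, among them 261 long noncoding and 182 antisense RNA genes. For a microRNA the annotation gives the ends of the hairpin and not the start of its transcript, so a member there lies at a hairpin.

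The study is a chromatin immunoprecipitation with sequencing (ChIP-seq) of Pif1B, the PFTAIRE-interacting factor 1B, carrying eGFP at the C terminus. The fusion was expressed stably from a transgene in the line Pif1B-GFP and was recovered with an anti-GFP antibody from sonicated chromatin, per the description of the samples. The antibody field of the same labels names Pif1B, so whether untagged Pif1B was recovered too cannot be told. The 3 biological replicates form a single group, whole pupae of both sexes pooled and of an age given as unknown, and no other stage, genotype or treatment was analysed here. The labels do not say which promoter drives the fusion or whether the untagged gene is present, and whole pupae mix all tissues, so a region cannot be placed in a cell type. The relaxed lists of replicates 1, 2 and 3 held 29999, 29999 and 30000 regions. Lists of nearly equal length carry no information on sequencing depth, which is unknown. Each region's signal is the authors' own value from the peak caller, and replicates were compared by rank in their own list. The intervals given with shares are 95% Clopper-Pearson intervals and cover counting error only.

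Noncoding RNA genes of the fly make products of several kinds. Long noncoding RNAs are transcribed and processed much like messenger RNAs but are not translated, and antisense RNAs run against a protein-coding gene. MicroRNAs are cut from hairpins within longer primary transcripts and repress messenger RNAs, small nucleolar RNAs are cut from introns of host transcripts, and the small nuclear and signal recognition RNAs act in ribonucleoprotein machines. Best known among them are roX1 and roX2, which guide dosage compensation to the male X chromosome, and Hsr-omega, a heat-inducible RNA that organises nuclear speckles. Most genes named with CR and a number have no described function.

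The summit base with 50 bp on each side is shown for 5 of the 6 strongest members. The member left out is that at lncRNA:CR44339, at place 5 with signal 623. All sequences are the plus strand of dm6, from the RefSeq release of the assembly, and are written 5′ to 3′. Capitals mark matches on either strand to 14 words given with the motif counts.
lncRNA:CR31044, chr3R:29214392-29214492: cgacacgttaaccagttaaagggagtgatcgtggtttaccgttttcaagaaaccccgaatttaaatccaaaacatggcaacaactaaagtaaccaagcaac
lncRNA:CR44619, chrX:12752309-12752409: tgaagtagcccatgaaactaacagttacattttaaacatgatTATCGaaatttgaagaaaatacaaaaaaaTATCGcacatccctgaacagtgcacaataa
lncRNA:CR46102, chr3R:25738151-25738251: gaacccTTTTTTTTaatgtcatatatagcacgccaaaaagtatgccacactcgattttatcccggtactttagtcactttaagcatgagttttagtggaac
lncRNA:CR46036, chr3R:17700536-17700636: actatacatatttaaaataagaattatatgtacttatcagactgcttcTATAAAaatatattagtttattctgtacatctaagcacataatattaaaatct
lncRNA:CR45668, chrX:5900142-5900242: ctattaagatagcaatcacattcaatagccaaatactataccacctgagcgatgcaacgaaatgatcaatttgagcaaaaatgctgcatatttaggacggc
Of these, the summits of lncRNA:CR31044 and lncRNA:CR45668 held none of the words, lncRNA:CR44619 held 2 CGATA words on the minus strand, lncRNA:CR46102 held a run of T and lncRNA:CR46036 held a TATAAA. At 19.8% the window of lncRNA:CR46036 was poor in G and C, against 40.6% at lncRNA:CR31044.

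The summits at 5 other genes with an IDR member are shown for comparison, with the same marking. They are the speckle RNA Hsr-omega, the small-RNA source flamenco, the growth microRNA bantam and mir-276a as examples with a known role, and mir-4962, the second strongest of the hairpin members.
lncRNA:Hsromega, chr3R:21296273-21296373: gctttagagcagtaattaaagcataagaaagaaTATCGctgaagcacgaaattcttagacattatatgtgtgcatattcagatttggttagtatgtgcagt
lncRNA:flam, chrX:21631666-21631766: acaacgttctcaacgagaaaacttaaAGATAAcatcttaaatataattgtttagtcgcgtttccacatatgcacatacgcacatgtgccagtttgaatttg
mir-ban, chr3L:642619-642719: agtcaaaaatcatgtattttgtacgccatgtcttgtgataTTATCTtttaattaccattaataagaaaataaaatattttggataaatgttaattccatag
mir-276a, chr3L:10364996-10365096: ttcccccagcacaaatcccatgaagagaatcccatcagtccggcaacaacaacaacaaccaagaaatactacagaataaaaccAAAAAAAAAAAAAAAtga
mir-4962, chrX:3777432-3777532: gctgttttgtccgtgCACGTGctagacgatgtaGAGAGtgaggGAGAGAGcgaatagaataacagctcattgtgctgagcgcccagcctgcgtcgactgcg
The window at mir-4962, in the gene of the chromatin kinase Tlk, had a GC content of 55.4% with a CACGTG and a GAGAG beside GAGAGAG. The window at the bantam hairpin had 22.8% GC and an AGATAA on the minus strand, and that at flamenco had 34.7% GC and an AGATAA on the plus strand.

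Regions at noncoding starts were in the IDR list slightly more often than regions of the whole list and less often than regions at protein-coding starts. The IDR list held 24.9% of the members (195 of 784, 95% interval 21.9% to 28.1%), against 21.4% of all pooled regions, 33.8% of regions at protein-coding starts (2170 of 6423, 32.6% to 35.0%) and 17.8% of regions at no start (4024 of 22650, 17.3% to 18.3%). Members made up 3.04% of the IDR list. IDR membership is not a separate measure, since the lowest signal in the IDR list was 83.2 and the highest outside it 83.1, so a share in the list is the share past that signal. The 283 regions at both a noncoding and a protein-coding start, which the rule leaves out, were in the IDR list in 35.0% of cases. The median signal over all regions was 41.4 for members, 55.2 for protein-coding starts and 35.4 for no start. Among IDR peaks alone the medians lay close together, at 136 for members, 142 for protein-coding starts and 135 for no start. The upper decile of IDR signal was 401 for members, 407 for protein-coding starts and 321 for no start. The highest member signal was 1364, against 1933 at a protein-coding start and 1865 at no start, and 12 of the 263 IDR peaks with a signal of at least 500 were members.

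The same order of the 3 classes was seen in each replicate's own list, called without the pooled data. Counting as strong the regions within the top of each replicate list, to the length of the IDR list, the strong share of regions at noncoding starts was 25.4%, 25.6% and 24.6% in replicates 1, 2 and 3. It was 33.3%, 32.5% and 33.0% at protein-coding starts and 17.4%, 17.5% and 18.0% at no start. The 3 classes did not overlap in any of these values. The mean was 25.2% ± 0.493 at noncoding starts, 32.9% ± 0.420 at protein-coding starts and 17.6% ± 0.298 at no start (SD, n = 3). The difference was -7.74 percentage points to protein-coding starts and 7.56 points to no start, with the same sign in 3 of 3 replicates each. The two-sided exact paired permutation test over the replicates gave p = 0.25 for both, the smallest p that 3 replicates allow, and 0.350 after Benjamini-Hochberg adjustment over 7 such comparisons, so neither can pass 0.05. The median percentile of signal within the replicate's list was 54.4 ± 1.82 at noncoding starts, 65.8 ± 0.513 at protein-coding starts and 45.1 ± 0.388 at no start (SD, n = 3), and these differences of -11.5 and 9.27 also kept their sign in every replicate (exact p = 0.25 each, adjusted 0.350).

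**Figure D1:**
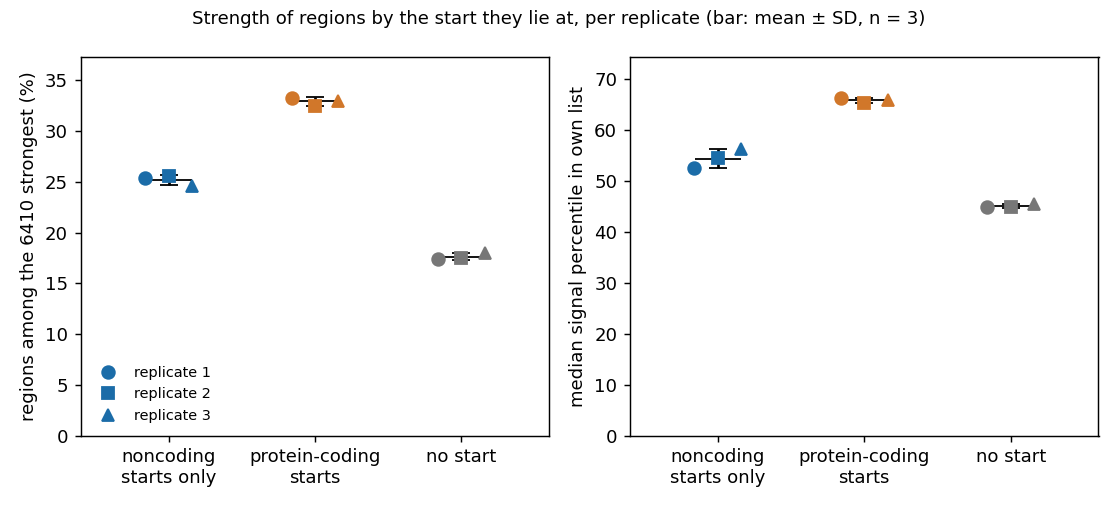
The left axis gives the percentage of regions among the strongest of each replicate's list and the right axis the median percentile of signal in that list, for regions at noncoding starts only, at protein-coding starts and at no start; points are the 3 replicates, and bars their mean and SD. In all 3 replicates noncoding starts lay between the other classes, with mean shares of 25.2%, 32.9% and 17.6% from left to right.

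Among members, the share in the IDR list was close for all kinds of noncoding gene. Counted by gene the kinds differed. An IDR member was found at 8.06% of long noncoding RNA genes, 3.38% of antisense genes, 3.82% of microRNA hairpin genes and 2.80% of others. These rates are not on equal terms. They include genes with a start near a protein-coding start, where the rule can remove regions. Such genes were 261 of 1947 long noncoding and 182 of 503 antisense RNA genes, and for microRNAs the hairpin stands in for the start. In the pooled list 165 of 666 members at long noncoding RNA starts were in the IDR list (24.8%), 17 of 67 at antisense starts (25.4%), 10 of 38 at microRNA hairpins (26.3%) and 3 of 13 at other noncoding starts (23.1%). All 4 shares lay near the 21.4% of the whole list, and the intervals of the 3 smaller groups covered it. Over replicates the strong share was 26.9% ± 2.16 where an antisense start was near and 25% ± 0.744 at the remaining noncoding starts (SD, n = 3), with exact p = 0.50 (adjusted 0.583). It was 25% ± 2.10 for starts inside a protein-coding gene and 25.3% ± 0.265 for starts outside one (SD, n = 3), with exact p = 1.00 (adjusted 1.00). The differences were 1.83 points, ranging from -0.645 to 5.02 over the replicates, and -0.295 points, ranging from -2.83 to 1.81.

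Replicate support of the members in the IDR list was like that of the list as a whole. All 3 replicates had an overlapping region among their strongest for 126 of the 195 (64.6%, 57.5% to 71.3%), against 65.6% of all IDR peaks. A further 57 had support in 2 replicates, 10 in 1 and 2 in none. Replicates 1, 2 and 3 supported 87.2%, 83.1% and 87.2% of them (mean 85.8% ± 2.37, SD, n = 3). With the whole relaxed lists 193 of the 195 were found in every replicate (99.0%), against 279 of the 589 members outside the IDR list (47.4%). The IDR list is a cut on pooled signal, and the pooled list contains the replicates' reads. Higher support for its members, and for the stronger of them, was therefore built into the split and is not separate evidence. Support followed strength: ordered into 5 equal parts of the IDR list from strong to weak, the members fully supported were 47 of 47, 35 of 37, 19 of 28, 18 of 52 and 7 of 31. These are 100%, 94.6%, 67.9%, 34.6% and 22.6%, against 99.1%, 97.2%, 78.9%, 40.8% and 12.2% of all IDR peaks in the same parts. Overlap says less for weak members beside a strong one, since 26 members outside the IDR list had overlaps among the strongest regions of all 3 replicates. One of them, at lncRNA:CR44339 with a pooled signal of 35.0, overlapped the regions at ranks 145, 130 and 227 that also cover the strong member of that gene. In all, the 784 members formed 683 separate intervals and the 195 formed 187.

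The IDR list ends at a signal, so the members at its edge are given as a description. The 5 weakest inside were at lncRNA:CR44588 (83.2), asRNA:CR45396 (84.5), lncRNA:CR45443 (84.9), lncRNA:CR44723 (85.1) and lncRNA:CR44760 (85.3). The 5 strongest outside were at mir-2281 (80.8), asRNA:CR45009 (79.4), lncRNA:CR44634 (79.4), asRNA:CR46484 (79.3) and lncRNA:CR44776 (78.9). The members at asRNA:CR45396 and lncRNA:CR45443 are the 2 without support, with best ranks of 7827, 6597 and 9716 and of 7399, 6876 and 8606 in replicates 1, 2 and 3. At lncRNA:CR44760 the replicates were far apart, with ranks of 18511, 9185 and 2752. At the edge of the distance rule, 24 of 78 regions with summits in the last 50 bp inside the limit were in the IDR list (30.8%), and 18 of 74 with summits in the first 50 bp beyond it (24.3%). The median signal ran the other way, at 42.4 inside and 45.9 beyond.

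The strongest member lay 120 bp upstream of lncRNA:CR31044 on chromosome 3R (chr3R:29214223-29214609), the primary transcript that holds the hairpins mir-279 and mir-996. Its pooled signal was 1364, rank 13 of all regions, and its signal was 483, 389 and 512 in replicates 1, 2 and 3. It was rank 13, 15 and 12 there, so all 3 replicates placed it alike. The nearest protein-coding start, of the translation elongation factor gene eEF1gamma, was 5730 bp away. The second, on X, lay in an exon of lncRNA:CR44619, 492 bp downstream of its start (chrX:12752169-12752554, signal 1117), with ranks of 20, 29 and 28. The third lay 174 bp downstream of the start of lncRNA:CR46102 (chr3R:25737998-25738353, signal 949), which runs antisense within an intron of LpR2, a lipophorin receptor gene. It was rank 31, 30 and 61. Only these 3 members were among the 100 strongest IDR peaks.

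The next members had signals from 626 to 404 and ranks between 89 and 626 in all replicates. A pair lay within introns of the Brahma complex gene osa, at the antisense transcripts lncRNA:CR46036 (signal 626, ranks 134, 99 and 285) and lncRNA:CR46035 (signal 469, ranks 381, 184 and 321). The member at lncRNA:CR44339 (signal 623, ranks 145, 130 and 227) was 4210 bp from the start of Psc, a Polycomb group gene. The member at lncRNA:CR45668 (chrX:5900024-5900477, signal 610, ranks 190, 189 and 166) was 669 bp from a start of Act5C, a cytoplasmic actin gene, beyond the 500 bp that would have removed it. The asRNA:CR45999 member had signal 578 and ranks 189, 89 and 283. That at lncRNA:CR45997 lay on the strand of its host mbl, the splicing factor gene muscleblind, with signal 558 and ranks 244, 203 and 204. In these 6 all ranks were 381 or better, and replicate 3 ranked the osa members lower than replicate 2 did.

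Others lay within known genes or between genes. At lncRNA:CR44676 the member (signal 553, ranks 254, 192 and 257) was between genes, 8389 bp from a protein-coding start. That at lncRNA:CR44867 (signal 527, ranks 204, 265 and 307) lay in an intron of the cell adhesion gene beat-Ib, and that at lncRNA:CR44222 (signal 525, ranks 232, 475 and 177) in an intron of kis, which encodes a chromodomain remodeller. At lncRNA:CR45595 the member (signal 515, ranks 157, 255 and 317) was 1201 bp from a start of l(3)neo38. Antisense to the tyrosine kinase gene FER, asRNA:CR46145 had signal 481 and ranks 431, 359 and 195. The lncRNA:CR45243 member (signal 436, ranks 500, 264 and 398) lay 1432 bp from a start of fringe (fng), whose product modifies Notch.

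Signals near 400 closed the 20 strongest. At lncRNA:CR44363 the member had signal 421 with ranks 352, 553 and 448. That at lncRNA:CR43626, which holds mir-282, had signal 420 with ranks 597, 339 and 416. Its summit lay 389 bp upstream of the noncoding start, in an exon of the protein-coding gene CG43389. The members at asRNA:CR45908, within CG1943, and at Hsr-omega had signals of 414 and 413. The last, at lncRNA:CR34335 in an intron of DIP-alpha, an adhesion receptor gene of neurons, had signal 404 and ranks 369, 626 and 483. All 20 were supported by every replicate, and 10 of the 20 had summits inside a protein-coding gene.

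**Figure D2:**
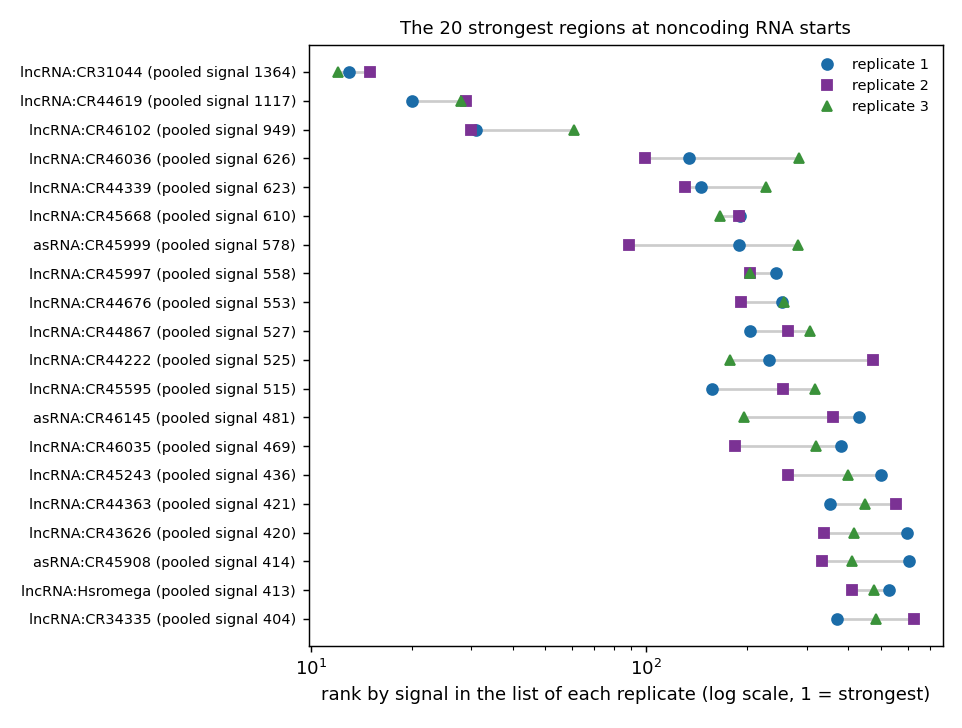
For each of the 20 strongest regions at noncoding starts, from the strongest down, the points give the rank of the overlapping region in the list of replicates 1, 2 and 3 on a log axis. lncRNA:CR31044 stayed at ranks 12 to 15, and all points lay at rank 626 or better.

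Starts inside protein-coding genes made up 256 of the 784 members, and 61 of these were in the IDR list (23.8%, 18.7% to 29.5%), against 134 of 528 outside such genes (25.4%, 21.7% to 29.3%). The noncoding gene ran antisense to its host in 175 of the 256, on the same strand in 79 and was overlapped by genes of both strands in 2. IDR members numbered 42 of 175 antisense (24.0%) and 18 of 79 on the same strand (22.8%). Summits in an exon of a protein-coding gene were few, with 4 of 27 in the IDR list (14.8%, 4.19% to 33.7%). Relative to the noncoding gene itself, 79 of 307 summits in its exons (25.7%), 12 of 52 in its introns (23.1%) and 104 of 425 outside it (24.5%) were IDR peaks. The intervals of these groups overlapped throughout. Of all pooled regions 21.4% were in the IDR list. The intervals of all these groups covered that share, except the one for starts outside protein-coding genes, which began just above it.

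More than 1 IDR member was found at 18 noncoding genes, 2 at each. Among them were Hsr-omega, lncRNA:CR46036, lncRNA:CR43626, lncRNA:CR46006 and lncRNA:CR44867. These need not be separate sites, since the 195 IDR members formed 187 separate intervals. The pair at Hsr-omega overlaps, and the summits at lncRNA:CR46036 lay at positions 17700586 and 17700788 of chromosome 3R. Among antisense starts the strongest members were at asRNA:CR45999, asRNA:CR46145 and asRNA:CR45908. The remaining noncoding starts held 3 IDR members, at Uhg4 (279), sisRNA:4 (193) and sncRNA:CR43701 (105). That at sisRNA:4 had ranks of 2081 and 1782 in replicates 1 and 2 and no region in replicate 3, and that at sncRNA:CR43701 had ranks of 3231, 6831 and 8470.

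Of 37 genes listed as primary microRNA transcripts, 25 had a member (67.6%) and 8 had an IDR member (21.6%), where 23.4% of all noncoding genes had a member and 6.63% an IDR member. The list takes genes whose span holds a hairpin, and each further transcript start of a gene widens the search. Gene length and number of starts were not matched, and lncRNA:CR46006 alone spans 43950 bp with 5 members. The genes asRNA:CR17025 and asRNA:CR46354 share an end and each had 2 members with a best signal of 44.9, so they are not separate. The 8 genes with an IDR member hold mir-279 and mir-996 (lncRNA:CR31044), mir-282 (lncRNA:CR43626), mir-4951 (Hsr-omega), mir-276a (lncRNA:CR46006), mir-14 (lncRNA:CR43651), mir-8 (lncRNA:CR43650), mir-275 (lncRNA:CR43857), and mir-281-1 with mir-281-2 (asRNA:CR46194). Of these, miR-8 and miR-14 act in growth and fat metabolism, and miR-276a in the brain. The strongest members had signals of 1364, 420, 413, 267, 251, 192, 157 and 116 in that order, so all but the first 3 lay below 300. At lncRNA:CR46006 the IDR members had signals of 267 and 239 and summits at positions 10332230 and 10363872 of chromosome 3L, at different transcript starts. In replicates 1, 2 and 3 the member at lncRNA:CR43650 had ranks of 2781, 1054 and 3038 and that at lncRNA:CR43651 had 1660, 2329 and 753. Ranks of 4539, 1629 and 2988 were found at lncRNA:CR43857. Each of the 8 had an IDR member with support in all 3 replicates. The best members of the other 17 had signals between 21.9 and 74.7 and were not in the IDR list, among them let7C, which carries the temporal microRNA let-7 (23.9). No region at a start was found for lncRNA:CR43836, lncRNA:CR44504, lncRNA:CR45345, lncRNA:CR45347, lncRNA:CR45388, lncRNA:CR45913, lncRNA:CR45917, lncRNA:CR45918, lncRNA:CR45920, lncRNA:CR46211 and iab4, and lncRNA:CR43270 had 1 of signal 38.3 at a protein-coding start.

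At the hairpins themselves, 32 of 262 genes had a member (12.2%, against 23.4% of all noncoding genes) and 10 had an IDR member (3.82%, against 6.63%). These were mir-2491 (228), mir-4962 (211), mir-9377 (204), mir-279 (183), mir-4974 (164), mir-92b (155), mir-276a (154), mir-275 (140), mir-9374 (110) and mir-ban (95.2), with the pooled signal in brackets. The bantam microRNA (mir-ban) promotes growth and blocks cell death. In replicates 1, 2 and 3 the bantam member had ranks of 5102, 9252 and 5382 and the mir-279 member 1112, 9894 and 2169. That at mir-276a had ranks of 1715, 10519 and 2709. Replicate 2 was the low replicate in all 3 cases. The member at mir-275 was low in replicate 1 instead, with ranks of 6851, 2223 and 2428. Several of these hairpins lay within protein-coding genes, mir-9377 in Tis11, mir-92b in jigr1 and mir-9374 in the nuclear receptor gene Hr39.

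Named RNAs with known roles differed among themselves. Hsr-omega had IDR members with summits 196 bp downstream of one start and 99 bp upstream of another (chr3R:21296208-21296417 and chr3R:21296307-21296736, signals 413 and 133). These intervals overlap, and both meet the same replicate regions, with signals of 137, 126 and 149 and ranks of 527, 409 and 477. In contrast no pooled region had its summit within 500 bp of any start of roX1 or roX2.

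Flamenco (lncRNA:flam), a source of small RNAs that silence transposons in the ovary, had an IDR member 175 bp upstream of its start (chrX:21631501-21631930, signal 154), with ranks of 2961, 2611 and 3358. Of the 9 small-RNA sources listed, hpRNA:CR33940 had a member too, with signal 24.8 and a region in replicate 3 only, and hpRNA:1, hpRNA:CR18854, hpRNA:CR32205, hpRNA:CR32207, hpRNA:CR46340, hpRNA:CR46342 and hpRNA:CR46343 had no region at a start. Hosts of small nucleolar RNAs included Uhg4 with an IDR member (signal 279, ranks 949, 805 and 1384) and Uhg1 with a member outside the IDR list (43.8). Uhg2 and Uhg8 lay at IDR peaks of 134 and 93.9 that the rule excludes because a protein-coding start is near. The other 6 of the 10 matched hosts, Uhg3, Uhg5, Uhg7, lncRNA:CR31647, lncRNA:CR42491 and lncRNA:CR45184, had none. Among 4 ribonucleoprotein RNA genes, RNaseMRP:RNA, whose product processes ribosomal RNA, had members of 46.7 and 44.6 outside the IDR list, and RNaseP:RNA and the genes 7SLRNA:CR32864 and 7SLRNA:CR42652, of the signal recognition particle, had none.

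Of the 32 matched noncoding genes within the Hox gene complexes, a list taken by position, 15 had a member (46.9%, against 23.4% of all noncoding genes) and 0 had an IDR member (against 6.63%). The strongest was at lncRNA:CR42651 with signal 63.0 and ranks of 10082, 15810 and 6734. The members at iab8, a regulator of abdominal identity, and bxd, from the regulatory region of Ultrabithorax, had signals of 39.3 and 27.5, and replicate 2 had no region at either. The other 12 genes had members between 19.7 and 36.2. A region of 79.9 at lncRNA:CR45593 was excluded for a protein-coding start. No region was found at a start of the remaining 16, which were iab4, mir-iab-4, mir-iab-8, mir-993, lncRNA:CR43252, lncRNA:CR43435, lncRNA:CR44931, lncRNA:CR44932, lncRNA:CR44945, lncRNA:CR45900, lncRNA:CR45901, lncRNA:CR45904, lncRNA:CR45905, lncRNA:CR46267 and both 7SLRNA genes. Of 6 further named long noncoding RNAs, yar, which acts in sleep (47.8), acal, which acts in dorsal closure (35.3), and let7C (23.9) had members outside the IDR list, and CRG, sphinx and noe had none.

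Around the start itself the members were spread far more evenly than regions at protein-coding starts. Summits within 100 bp of the start made up 22.1% of IDR members (43 of 195, 16.4% to 28.5%), 21.9% of the other members (129 of 589) and 37.3% of IDR peaks at protein-coding starts (810 of 2170, 35.3% to 39.4%). A uniform spread over the window would place 20.1% there. The median distance was 224 bp for IDR members and 140 bp at protein-coding starts. Upstream summits made up 55.9% of IDR members, 54.7% of the other members and 74.4% of IDR peaks at protein-coding starts. Among the 25 strongest members 3 were within 100 bp. In the strongest regions of the replicates, the share within 100 bp was 19.7%, 24.3% and 21.8% at noncoding starts, against 39.8%, 35.8% and 36.6% at protein-coding starts. The means were 22.0% ± 2.32 and 37.4% ± 2.13 (SD, n = 3), a difference of -15.4 points in the same direction in 3 of 3 replicates (exact p = 0.25, adjusted 0.350). This comparison was added after the values were seen. Each distance was to the nearest of all transcript starts, of which a gene can have several, and the uniform share assumes a single start. With each gene's 5′ end as its start the difference was -16.6 points. How exactly noncoding starts are annotated was not tested, and 66.2% of the IDR members had the fixed width of 430 bp, against 73.5% of all IDR peaks.

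**Figure D3:**
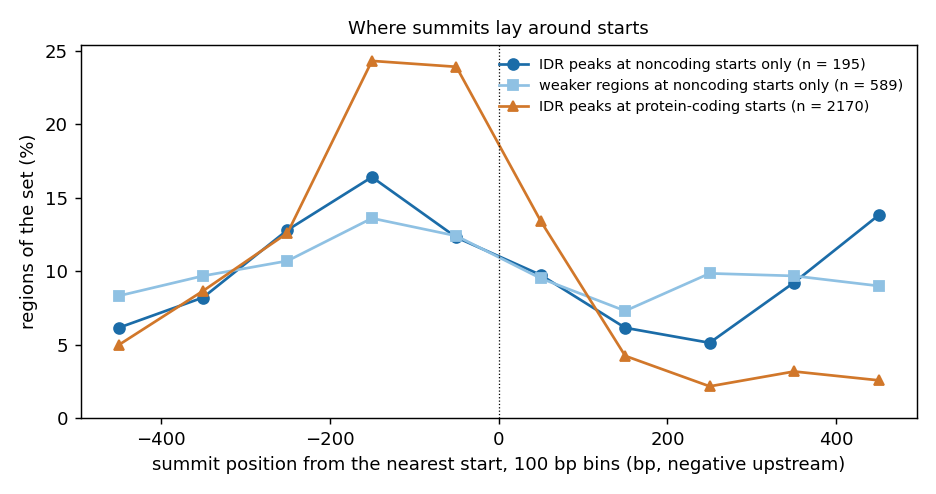
The horizontal axis gives the position of the summit from the nearest start in bins of 100 bp, negative upstream, and the vertical axis the percentage of the set in each bin, for IDR members, other members and IDR peaks at protein-coding starts. The curve for protein-coding starts reaches 24.3% at 100 to 200 bp upstream of the start, where IDR members reach 16.4%. The IDR members also have 13.8% at 400 to 500 bp downstream, a bin of 27 regions only. That bin holds 9.00% of the other members and 2.58% of IDR peaks at protein-coding starts.

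Members were also set beside regions at no start at equal distance from protein-coding genes. For summits 500 to 1000 bp from the nearest protein-coding start, the mean strong share was 24.3% ± 3.09 at noncoding starts and 23.0% ± 0.692 at no start. It was 29.3% ± 2.33 and 20.5% ± 0.738 at 1000 to 2000 bp, 28.2% ± 2.55 and 16.8% ± 0.427 at 2000 to 5000 bp, 19.1% ± 1.39 and 16.9% ± 0.934 at 5000 to 10000 bp, and 22.2% ± 1.02 and 14.9% ± 0.285 beyond that (SD, n = 3 each, at noncoding starts and at no start in that order). The noncoding starts were higher in 3 of 3 replicates in the bins of 1000 to 2000 bp, 2000 to 5000 bp and the farthest (exact p = 0.25 each, the smallest possible) and in 2 of 3 in the other bins (exact p = 0.50 each). In the pooled list the IDR shares of members in these bins were 27.0%, 29.3%, 28.5%, 18.0% and 19.9%, against 22.7%, 21.3%, 16.8%, 17.4% and 15.0% of regions at no start.

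**Figure D4:**
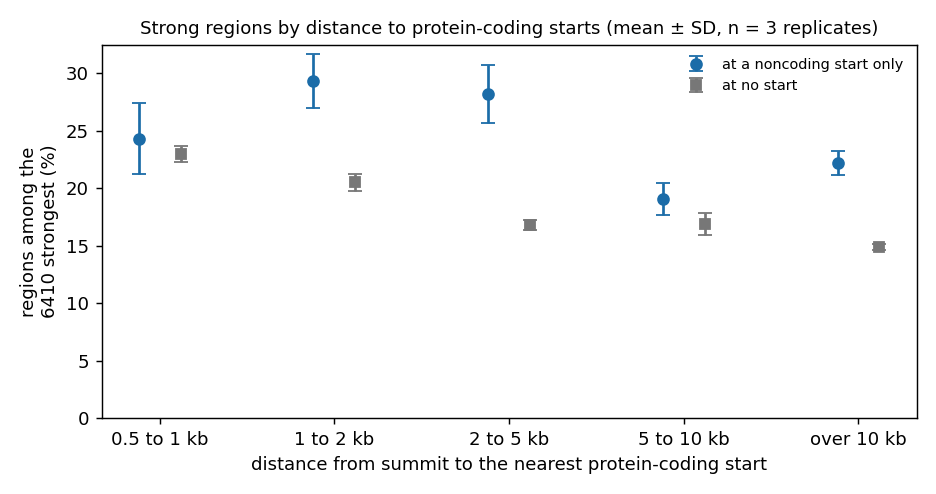
For 5 ranges of distance to the nearest protein-coding start, points give the mean share of regions among the strongest of the replicate's list, with the SD over 3 replicates, at noncoding starts only and at no start. The mean at noncoding starts is higher in all 5, with the widest gap, 28.2% against 16.8%, at 2 to 5 kb.

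By chromosome the IDR share of members was 22.7% on 2L (42 of 185), 28.1% on 2R (34 of 121), 23.3% on 3L (48 of 206), 27.2% on 3R (46 of 169) and 26.6% on X (25 of 94). Against 21.4% for all regions, none of the 5 intervals excluded that share. None of the 9 members on chromosome 4 was in the IDR list (0% to 33.6%). The strongest there was at asRNA:CR44029, antisense within the synaptic gene unc-13, with signal 74.0 and ranks of 12458, 5741 and 9555, and no member lay on Y.

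In GC content and GAGAG words the summits of IDR members were closer to those at no start than to those at protein-coding starts. The GC content within 50 bp of the summit averaged 35.7% ± 9.99 in the 195 IDR members and 39.6% ± 10.6 in the 589 others, where the SD is over regions. It was 38.7% at IDR peaks at protein-coding starts and 33.8% at IDR peaks at no start. In the strongest regions of the replicates the mean GC content was 35.5% ± 1.54 at noncoding starts, 38.3% ± 1.5 at protein-coding starts and 34.4% ± 0.862 at no start (SD, n = 3). In all classes IDR peaks had less GC than the weaker regions of the class, which had 39.6% at noncoding starts, 41.1% at protein-coding starts and 38.3% at no start.

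The 14 words were searched on both strands. They were GAGAG as bound by the GAGA factor, the longer GA repeat GAGAGAGA that also counts as the shorter word, the DREF site called DRE as TATCGATA, and CGATA as in BEAF-32 sites, which is contained in the DRE. Core promoter motif 1 was searched as GGTCACACT and E-boxes were searched in the form CACGTG and, apart from it, in the form CAGCTG. The TATA box was searched as TATAAA and the initiator was searched as TCAGTT, and repeats were CACACACA and a run of 8 A. GATA factor sites were searched as AGATAA while the Zelda site was searched as CAGGTAG and a nuclear receptor site was searched as AGGTCA. A match is a description of the sequence only. GAGAG was in 13.8% of IDR members (27 of 195, 9.33% to 19.5%), 23.3% of IDR peaks at protein-coding starts (21.6% to 25.2%), 12.9% at no start (11.9% to 14.0%) and 14.1% of all pooled regions. In the replicates it was in 14.4% ± 3.83 of strong regions at noncoding starts, 20.5% ± 3.38 at protein-coding starts and 13.2% ± 1.15 at no start (SD, n = 3), and lower at noncoding than at protein-coding starts in each replicate. CAGCTG was in 1.54% of IDR members, 5.81% at protein-coding starts and 2.61% at no start, against 3.95% of all regions, and CGATA in 9.74%, 13.0% and 10.6%, against 11.2%. The DRE was in 0 of the 195 IDR members (0% to 1.87%), in 1.24% of IDR peaks at protein-coding starts and 0.0746% at no start, against 0.383% of all regions, and GGTCACACT was in none of the members either, against 0.230% of all regions.

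AGATAA went the other way, in 11.3% of IDR members (22 of 195, 7.21% to 16.6%), 6.50% at protein-coding starts, 8.15% at no start and 6.89% of all regions. In the replicates it was in 9.18% ± 1.55 of strong regions at noncoding starts, against 6.70% ± 0.795 at protein-coding starts and 7.83% ± 0.416 at no start (SD, n = 3), above protein-coding starts in 3 of 3 replicates and above no start in 2 of 3. With 100 bp on each side of the summit it was in 17.4% of IDR members (12.4% to 23.5%), against 12.9% of all regions, a share that this interval covers. CACGTG was in 1.55% ± 0.0658, 1.03% ± 0.102 and 0.590% ± 0.0379 of the same 3 classes, in the order noncoding, protein-coding and no start, but the value at noncoding starts rests on 3 regions in each replicate. In the pooled IDR list it was in 2 of 195 members (1.03%, 0.124% to 3.66%), against 0.903% of all regions. TATAAA was in 17.4% of IDR members, 18.3% at protein-coding starts, 21.9% at no start and 18.2% of all regions. The initiator word was in 7.18% of IDR members and 6.96% of all regions, and the run of A in 9.74% and 10%. The CA repeat was in 0.513% of IDR members, against 2.61% of all regions, and with 100 bp on each side in 4.10% against 5.58%. The GA repeat (2.56% against 1.47%), the Zelda word (1.03% against 0.433%) and the nuclear receptor word (2.56% against 1.78%) were rare in IDR members as in all regions.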

How the data were processed

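The values used were the signal per region that the authors deposited for the pooled relaxed list, the IDR list and the 3 replicate lists in dm6, taken from the narrowPeak signal column. Per the labels, chromatin was sonicated, and the antibody is anti-GFP in their description and Pif1B in their antibody field. Which aligner, which caller and which IDR cutoff were used is not given in the sources used here. Regions of dm3 and control libraries were not used here.

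Starts were every transcript start in Ensembl release 115 (BDGP6), with transposable elements left out. Of 3304 entries of biotype ncRNA, 485 were mature microRNAs inside hairpin genes and were counted with the hairpin. 2 members lay near mature entries alone, and 4 also lay near a snoRNA, snRNA, rRNA or pseudogene start. Regions at both kinds of start counted as protein-coding. Support meant an overlap of at least 1 bp with a replicate's strongest regions, as many as the IDR list holds. A replicate's rank for a member is that of its best overlapping region, which may be shared with a neighbour. The pooled and IDR lists contain the replicates' reads and are not independent of them. Differences were tested over replicates by two-sided exact paired permutation tests. With 1 group there was no comparison of conditions.

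Named genes were those at the 20 strongest IDR members, the 5 members on each side of the IDR threshold, the 3 strongest of each kind, the members on chromosomes 4 and Y, the genes that host the 20 strongest, and the genes of the noncoding lists. The member at lncRNA:CR44339 with signal 35.0 was chosen after its values were seen. Members and lists were chosen with earlier results of these data known. Of the listed names 8 matched no gene of this biotype and were left out. Analyses used Python 3.11.15, numpy 2.4.6, scipy 1.17.1, pandas 2.3.3 and statsmodels 0.14.6, with figures by matplotlib 3.10.9. The classification, overlaps and paired test were tested on simulated data with known answers.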

Additional observations from a re-analysis of the deposited data

How the results depend on the processing

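The single group left no second group to pair with through a replicate block, and the region classes were compared within each replicate. The differences between noncoding starts and the other classes in strong share and percentile kept their direction under every alternative run. Without 1 replicate the strong share differed by -8.16 to -7.43 points from protein-coding starts and by 7.30 to 8.01 from no start, the percentile by -12.3 to -10.3 and by 8.58 to 10.1, and the share of summits within 100 bp by -17.4 to -13.1. The antisense difference ranged from 0.235 to 3.07 without 1 replicate, was 3.49 with starts within 250 bp, 5.20 with each gene's 5′ end as its start and 3.08 with the stronger part of the strong regions, and turned to -2.26 with 1000 bp. The difference between starts inside and outside protein-coding genes ranged from -1.35 to 0.974 without 1 replicate. It turned to 2.03 with 250 bp, 0.787 with 1000 bp, 3.89 with each gene's 5′ end as its start and 0.900 with the stronger part of the strong regions, so no direction can be given. The number of IDR members was 121 of 477 within 250 bp of a start (25.4%), 96 when only IDR peaks at or above their median signal counted, and 142 to 150 when both of the other replicates had to support the peak. Chosen after the data were seen, leaving out microRNA entries gave 185 of 747 members and strong-share differences of -7.89 and 7.39 points, and keeping the strongest of overlapping members gave 187 of 686. Full support was 56.4% with summits within 100 bp of each other, 99.0% with whole replicate lists, and 72.8% to 76.9% when 1 replicate was left out and fewer overlaps were required. With 3 replicates no exact p can fall below 0.25 and with 2 below 0.50. Depth is unknown, and a place near a start does not show which gene a site acts on.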
